A study of Homo sapiens with 6 samples.

Results

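The clustered protocadherins of human chromosome 5 were examined in A2058 cells, a human melanoma line that overexpressed wild-type TET2 (TET2WT), the enzyme that oxidises 5-methylcytosine (5mC) to 5-hydroxymethylcytosine (5hmC). All groups shared the line and the transgene, and differed in 7 days of culture in high or in normal glucose. DNA carrying each mark was captured with an antibody and sequenced, by hMeDIP-seq for 5hmC and MeDIP-seq for 5mC. Each mark had 1 library per glucose level, and the 2 input libraries were not analysed here. The labels do not state which promoter drove TET2 or whether the cells were 1 clone.

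The locus was taken as positions 140160000 to 140900000 of chromosome 5 on the human build hg19, which the submitters' processing notes name. It was divided into the alpha cluster (140160000 to 140395000), the beta cluster (140425000 to 140630000) and the gamma cluster (140705000 to 140900000). Of 593403 peaks listed on chromosomes 1 to 22 and X, 241 overlapped it: 32 of 5hmC in high glucose, 36 of 5hmC in normal glucose, 88 of 5mC in high glucose and 85 of 5mC in normal glucose. The 500 kb to either side held 414 peaks and served as flanks. No peak crossed the edge of a cluster. The members were chosen by position alone. With no hg19 gene positions at hand, the clusters are named by their coordinates and no peak was assigned to a gene.

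Protocadherins are cell-surface adhesion proteins of the cadherin superfamily, best known for giving neurons a molecular identity. In the alpha and gamma clusters, each of many variable exons has its own promoter and is spliced to constant exons shared by the whole cluster, while the beta genes are single-exon genes with no shared constant part. Neurons use only a few of the variable promoters at a time, CTCF binding and promoter methylation both bear on that choice, and long-range methylation of the locus is known in several tumours. The last genes of the alpha and gamma clusters, the C-type genes, are expressed more uniformly than the variable ones.

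The order and the number of the genes came from RefSeq on GRCh38.p14, whose positions were not compared with the peaks. RefSeq lists 13 variable alpha genes and the pseudogene PCDHA14, followed by the C-type genes PCDHAC1 and PCDHAC2. It lists 16 beta genes with 3 pseudogenes, then SLC25A2 and TAF7, which are no protocadherins. The gamma cluster follows with 19 variable genes, 2 pseudogenes and 3 C-type genes. RefSeq promoter windows, from 250 bases before to 50 after a start, were found for 47 of the 53 protein-coding protocadherin genes, and PCDHA3, PCDHA13, PCDHB6, PCDHB11, PCDHGA12 and PCDHGC5 had none.

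MeDIP captures methylated CpG sites, so the number of CpG sites in a stretch limits how much 5mC it can carry. One window per gene group is shown, the one with a CpG count nearest to the median of its group. On a tie it is the first along the chromosome. The alpha C-type genes have only 2 windows, equally far from their median, and PCDHAC1 is the one richer in CpG sites. Sequences are on the plus strand, 5′ to 3′, with each CpG in capitals. PCDHA7 (chr5:140834019-140834318, GRCh38.p14) stands for the variable alpha genes, PCDHAC1 (chr5:140926049-140926348) for the alpha C-type genes, PCDHB12 (chr5:141208469-141208768) for the beta genes, PCDHGB1 (chr5:141349849-141350148) for the variable gamma genes and PCDHGC4 (chr5:141484780-141485079) for the gamma C-type genes.
PCDHA7: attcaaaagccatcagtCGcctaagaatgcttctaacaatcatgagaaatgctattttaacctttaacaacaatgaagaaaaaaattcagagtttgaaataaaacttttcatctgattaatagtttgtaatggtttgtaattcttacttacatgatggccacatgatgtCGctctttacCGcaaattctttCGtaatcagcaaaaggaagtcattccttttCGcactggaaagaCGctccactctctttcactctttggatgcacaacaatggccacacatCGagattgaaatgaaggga
PCDHAC1: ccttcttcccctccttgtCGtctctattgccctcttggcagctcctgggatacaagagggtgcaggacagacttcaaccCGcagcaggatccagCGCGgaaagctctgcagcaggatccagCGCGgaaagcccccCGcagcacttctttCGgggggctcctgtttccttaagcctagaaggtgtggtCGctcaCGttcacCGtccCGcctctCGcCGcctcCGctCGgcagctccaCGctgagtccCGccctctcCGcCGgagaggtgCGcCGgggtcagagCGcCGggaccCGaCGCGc
PCDHB12: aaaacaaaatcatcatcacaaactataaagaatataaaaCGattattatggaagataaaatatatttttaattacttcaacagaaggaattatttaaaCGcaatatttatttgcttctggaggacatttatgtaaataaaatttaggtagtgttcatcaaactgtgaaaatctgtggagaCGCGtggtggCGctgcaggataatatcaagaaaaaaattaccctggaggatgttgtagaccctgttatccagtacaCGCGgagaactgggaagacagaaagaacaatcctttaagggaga
PCDHGB1: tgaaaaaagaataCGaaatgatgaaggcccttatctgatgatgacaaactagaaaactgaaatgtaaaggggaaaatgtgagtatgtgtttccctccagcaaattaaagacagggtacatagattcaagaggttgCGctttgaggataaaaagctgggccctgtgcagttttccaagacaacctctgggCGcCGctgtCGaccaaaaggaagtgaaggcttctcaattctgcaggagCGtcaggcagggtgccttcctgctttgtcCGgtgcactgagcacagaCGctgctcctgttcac
PCDHGC4: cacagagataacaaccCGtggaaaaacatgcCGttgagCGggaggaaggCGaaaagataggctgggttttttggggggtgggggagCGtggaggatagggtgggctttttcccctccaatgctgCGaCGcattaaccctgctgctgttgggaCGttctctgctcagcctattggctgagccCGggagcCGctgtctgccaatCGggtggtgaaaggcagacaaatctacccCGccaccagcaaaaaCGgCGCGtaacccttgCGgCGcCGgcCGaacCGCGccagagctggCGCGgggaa

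Most variable and beta promoters held few CpG sites and the C-type promoters many. The variable alpha windows held a median of 7 CpG sites (3 to 9 over 11 windows), the beta windows 7.5 (5 to 12 over 14 windows) and the variable gamma windows 7.5 (2 to 25 over 22 windows of 18 genes). PCDHAC2 and PCDHAC1 held 15 and 27, and the 3 windows of the gamma C-type genes held 18 to 24. The median of all 35116 windows in the RefSeq table was 14, between the group medians of the 2 kinds. Single variable gamma windows lay within the C-type range, with up to 17 in PCDHGB4, 19 in PCDHGB5 and 25 in PCDHGB6. Most protocadherin promoters, but not all, are known for a conserved element with the core CGCT. The letters CGCT on either strand (CGCT or AGCG) stood in 51 of the 52 windows, or 98.1%, against 70.0% of all windows. The window without it was that of PCDHA9. A match of 4 letters describes the sequence and by itself shows neither the conserved element nor a binding site.

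**Figure D1:**
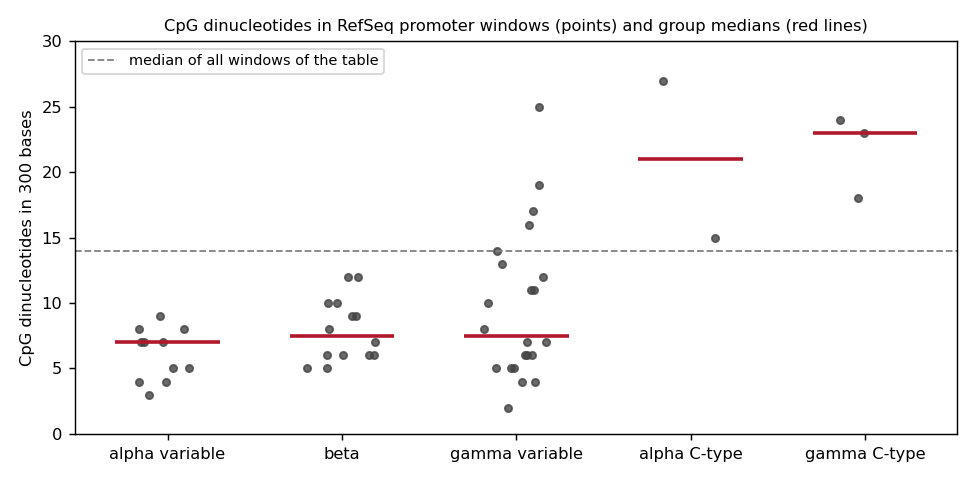
CpG sites per 300-base RefSeq promoter window (vertical axis) for the protocadherin gene groups; each point is 1 window, the red lines are group medians, and the dashed line is the median of all 35116 windows (14). The variable alpha and the beta windows lie below the dashed line, while the 5 C-type windows lie above it.

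Values of a peak are the authors' own. Fold is the enrichment at the summit, the highest point of the peak, over the local background. Ranks, and the word strongest, refer to -log10 p within 1 list. Folds at the 2 glucose levels stand side by side as a description, since each rests on the background of its own list. The number of fragments at a summit was solved from its fold and its p: in the locus these numbers ran from 14 to 44 fragments in the high-glucose 5hmC list, 10 to 42 in the normal-glucose one, 6 to 171 in the high-glucose 5mC list and 5 to 135 in the normal-glucose one. With an assumed genome of 2700 Mb, the background levels correspond to 28.0 M, 27.5 M, 6.14 M and 5.11 M reads in the same order. For these read numbers the shortest peak of each list was taken as the fragment length. Fragment and read numbers rest on an assumed Poisson model with a pseudocount of 1. With 1 library per mark and glucose level no difference between glucose levels has a replicate check, and no test was made. Intervals are at 95% and cover counting error alone: the reads carry no molecular identifiers, so they are not independent molecules, and peaks are not replicates.

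The clusters were rich in 5mC and poor in 5hmC compared with their flanks (density plot). Peaks of 5mC numbered 9.36 per 100 kb of the alpha cluster in high glucose (exact Poisson interval 5.87 to 14.2) and 8.94 in normal glucose (5.53 to 13.7). The beta cluster had 12.2 and 12.7, and the gamma cluster 20.5 and 18.97, against 5.2 and 4.9 in the flanks. Over the whole lists, the 5mC densities were 3.40 and 3.12 peaks per 100 kb. The order was thus gamma, beta, alpha and flanks at either glucose level, although the intervals of neighbours in that order overlapped. As a ratio to both flanks, the density of 5mC peaks was 1.80 and 1.82 in alpha, 2.35 and 2.59 in beta, and 3.94 and 3.87 in gamma, with intervals that excluded 1. With peaks within 500 bp merged, the alpha ratio in normal glucose was 1.60 (0.874 to 2.79), whose interval included 1. Against the right flank alone, the alpha ratios of 1.46 (0.810 to 2.60) and 1.31 (0.725 to 2.33) had intervals that included 1.

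The 5mC peaks of the clusters were also wide, so that cover set them further apart than their number. Peaks of 5mC covered 12.7% of the alpha cluster in high and 11.6% in normal glucose, 11.4% and 9.59% of beta, and 23.7% and 22.8% of gamma, against 3.32% and 3.19% of the flanks. By covered length, the ratio to the flanks became 3.82 and 3.63 in alpha and 7.14 at either glucose level in gamma. Median widths were 1478.5 and 1427 bp in alpha, 827 and 596.5 bp in beta and 1038.5 and 1045 bp in gamma, against 504.5 and 525 bp in the flanks and 500 and 507 bp over the whole lists. The locus as a whole was covered to 13.6% and 12.5%. Of 4110 windows of the same length along the chromosomes, 118 in high and 123 in normal glucose had more 5mC cover, and the median window had 0.832% and 0.753%.

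For 5hmC the direction was the opposite. The alpha cluster held 2.55 peaks of 5hmC per 100 kb in high glucose (0.937 to 5.56) and 4.26 in normal glucose (2.04 to 7.83), the beta cluster 4.88 at either level, and the gamma cluster 6.67 and 7.18, against 15.5 and 15.8 in the flanks. The ratios to both flanks were 0.165 and 0.269 in alpha, 0.315 and 0.309 in beta, and 0.430 and 0.454 in gamma, again with intervals that excluded 1. Among peaks with a -log10 p of 10 or more, the gamma ratio in normal glucose became 0.513 (0.199 to 1.11), whose interval included 1. The flanks were unequal, however: the right one held 22.4 and 22.2 peaks per 100 kb and the left one 8.60 and 9.40. Against the left flank alone, beta gave 0.567 (0.254 to 1.15) and 0.519 (0.234 to 1.04) and gamma 0.775 (0.382 to 1.47) and 0.764 (0.388 to 1.41), so that these intervals included 1. The alpha ratios of 0.297 (0.103 to 0.701) and 0.453 (0.204 to 0.908) still excluded it. Against the whole lists, at 6.50 and 7.13 peaks per 100 kb, the 5hmC density of gamma lay near the genome's level. That of alpha lay below it, with an interval that excluded it in high glucose but not in normal glucose. Of the 4110 windows, 2326 and 2143 had more 5hmC cover than the 2.27% and 2.48% of the locus.

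**Figure D2:**
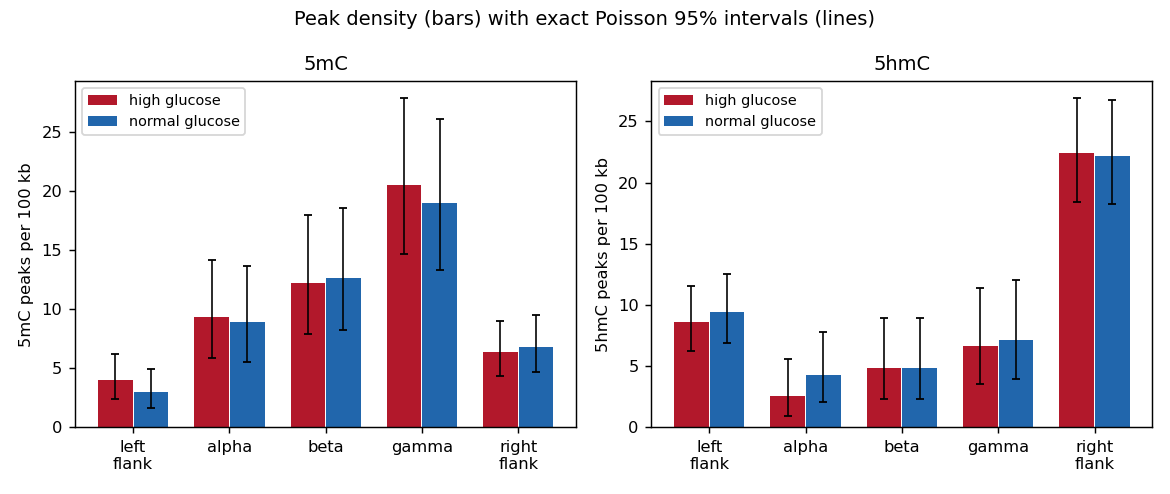
Peaks per 100 kb (vertical axis) in the alpha, beta and gamma clusters and the left and right flanks, for each mark and glucose level, with exact Poisson 95% intervals. The 5mC densities rise from the flanks to gamma (20.5 and 18.97), and the 5hmC densities are highest in the right flank (22.4 and 22.2).

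**Figure D3:**
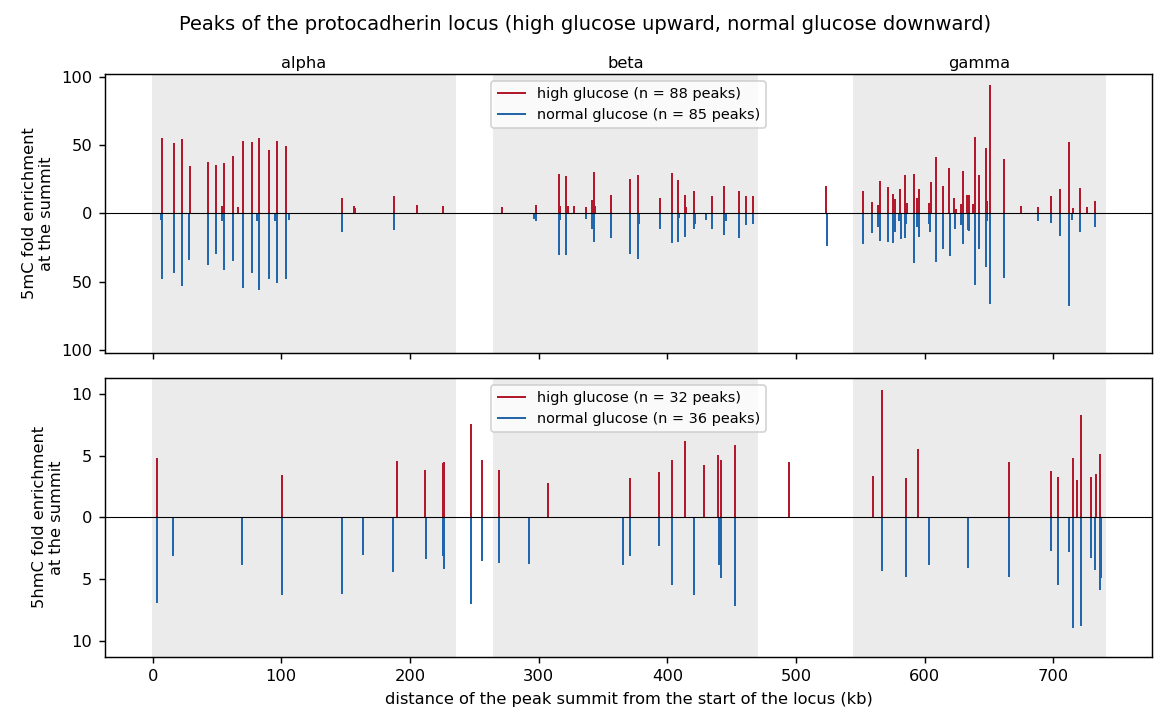
Map of all peaks of the locus: distance from the start of the locus in kb (horizontal axis) against the authors' fold at each summit (vertical axis), with 5mC above and 5hmC below, high glucose drawn upward, normal glucose downward and the clusters shaded. The 14 strong 5mC peaks stand together in the first part of alpha, and the highest 5mC point (fold 94.1) lies in gamma.

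The alpha cluster began with an array of strong 5mC peaks. In each glucose list 14 of its 5mC peaks had a fold of at least 30, a threshold chosen after the values were seen, and the next highest fold in the cluster was 12.6 in high and 13.6 in normal glucose. Over the whole 5mC lists, 3.75% of peaks in high glucose and 3.44% in normal glucose reached that fold. The 14 peaks lay between 140166769 and 140264398 in high glucose, a span of 97.6 kb, and each overlapped 1 of the 14 in normal glucose. Their summits were 5.31 to 14.3 kb apart in high glucose, with a median of 6.75 kb, and 5.53 to 14.6 kb apart in normal glucose, with a median of 6.84 kb. RefSeq lists 14 variable alpha genes, the pseudogene included, but whether the 14 peaks fall 1 to a gene was not tested.

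Along the array the strength dipped and recovered. The first peak (140166769 to 140168308) had a fold of 55.6 in high and 47.8 in normal glucose. The second (140175554 to 140177140) had 51.4 and 43.8, and the third (140180845 to 140183254) 54.7 and 53.3. These 3 were followed by a run of lower ones. The fourth (140187827 to 140189200) had folds of 35.0 and 34.2, and the widest step of the array, 14.3 kb between summits in high glucose, separated it from the next (140202366 to 140204124), with 37.6 and 37.7. The sixth (140208739 to 140210210) had 35.7 and 30.03, the lowest fold of the array in normal glucose. The seventh (140214995 to 140216408) had 37.3 and 41.5 and the eighth (140221740 to 140223392) 42.3 and 34.7. From the ninth on the fold was high again at either glucose level. The ninth (140229137 to 140230621) had 53.0 and 54.5, the tenth (140235430 to 140238201) 52.1 and 44.0 and the eleventh (140241215 to 140243308) 55.4 and 55.8. The last 3, starting at 140249492, 140255199 and 140262744, had 46.6 and 48.4, 53.2 and 51.2, and 49.3 and 48.3. In normal glucose the peaks of highest -log10 p were the eleventh (140241798 to 140243308), the ninth (140229136 to 140230492) and the third (140180774 to 140183232). The last of these, at 2459 bp, was the widest of alpha in normal glucose, and the tenth, at 2772 bp, the widest in high glucose. The array rested on 61 to 116 fragments in the high-glucose library and 50 to 96 in the other, and ranked from 332 to 2926 among all 100220 peaks and from 281 to 3494 among all 91870. The fold was higher in the high-glucose list for 9 of the 14 and higher in the normal-glucose list for 5.

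**Figure D4:**
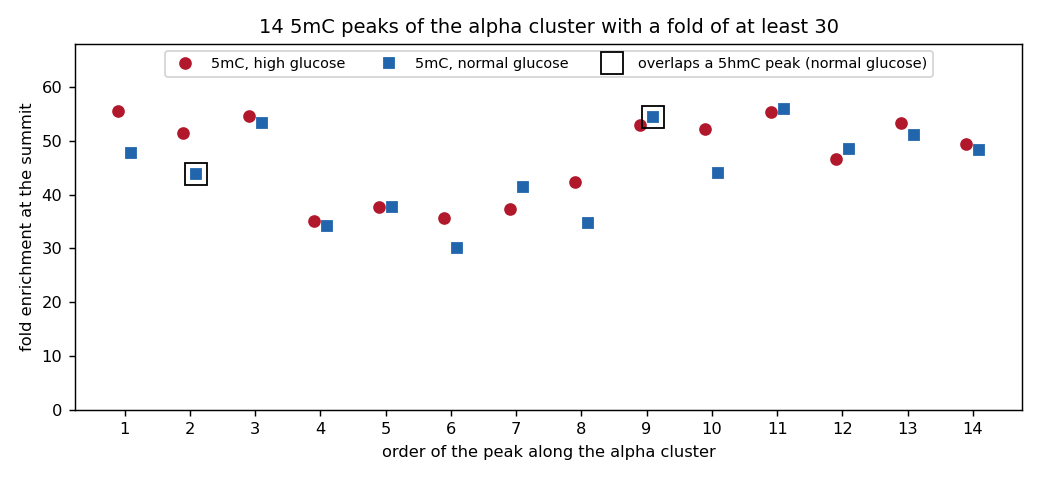
The 14 strong 5mC peaks of the alpha cluster in order along the chromosome (horizontal axis) with the authors' fold at the summit (vertical axis) in the high- and the normal-glucose library; outlined points overlap a 5hmC peak in normal glucose. The fold lies between 30.03 and 42.3 from the fourth to the eighth peak and at 43.8 or above elsewhere.

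Beyond the array the alpha cluster held little 5mC. After the last strong peak and 1 weak peak in normal glucose (140266170 to 140266494, fold 4.95), 40.4 kb without a 5mC peak at either glucose level followed, from 140266495 to 140306863. A pair of moderate places came next: 140306864 to 140307811 with folds of 10.97 in high and 13.6 in normal glucose, and 140346439 to 140347737 with 12.6 and 12.3. With the cluster cut into 5 equal stretches, 5mC covered 18.4% and 19.2% of the first, 28.6% and 25.7% of the second and 1.66% and 0% of the last of them. The cluster thus ended nearly free of 5mC peaks. That last stretch held 4 of the 6 alpha 5hmC summits in high glucose and 3 of the 10 in normal glucose.

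The gamma cluster was the most densely covered, with 40 5mC peaks in high and 37 in normal glucose. Its strongest peak, at 140810279 to 140812551 in high glucose, had a fold of 94.1, a -log10 p of 326, rested on 171 fragments and ranked 7 in the whole list. In normal glucose the same place (140810249 to 140812735) had a fold of 66.4, 135 fragments and rank 38. This was the locus peak of highest rank in either 5mC list. The second, at 140869982 to 140872597, had a fold of 52.2 and rank 176 in high glucose and 68.2 and rank 59 in normal glucose (140870134 to 140872509). The third, at 140798410 to 140799588, had 55.8 in high glucose and 52.4 in normal glucose, where it was wider (140797071 to 140799699). The widest peaks of gamma were the one at 140869982 in high glucose (2616 bp) and 140772135 to 140774892 in normal glucose (2758 bp, fold 26.01). Of each 5mC list, 12 of the 1000 peaks of highest rank lay in the locus.

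Most strong peaks of gamma stood in its middle rather than at its start. An exception was 140869982 to 140872597, near its end, with a fold of 52.2 in high and 68.2 in normal glucose. Folds of at least 30 were reached by 8 of its peaks in each list. The first of them lay at 140768605 to 140769807 in high glucose (fold 41.4, against 35.3 in normal glucose) and at 140751096 to 140752156 in normal glucose (fold 36.1, against 29.1 in high glucose). Between there and 140822000 lay also 140807003 to 140807974, with 47.7 and 38.9, and 140820798 to 140821908, with 40.1 and 47.7. In 5 equal stretches of gamma, 5mC covered 31.0% and 25.2%, 31.9% and 34.4%, and 35.5% and 37.98% of the first 3, then 3.19% and 1.74% of the fourth and 16.8% and 14.8% of the last. The fourth held the longest stretch of gamma with no 5mC peak at either level, 13.4 kb from 140834747 to 140848186. The 10 kb of highest 5mC cover in the locus, by the mean of both glucose levels, were 140790000 to 140799999, at 41.9% in high and 46.5% in normal glucose.

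The 5mC peaks of the beta cluster were many and moderate. It held 25 in high and 26 in normal glucose, and median folds were 12.7 and 11.1, against 37.5 and 37.7 in alpha, 15.3 and 16.6 in gamma, 7.23 and 7.21 in the flanks and 6.58 and 6.70 over the whole lists. A fold of at least 30 was reached by 1 peak in high glucose, 140502597 to 140503174 (30.5, against 20.6 in normal glucose). It was reached by 4 in normal glucose, of which the strongest was 140536502 to 140537192 (33.4, against 28.2 in high glucose). The others were 140479984 to 140481830 (30.6), 140474861 to 140475944 (30.3) and 140530776 to 140531442 (30.03), with 27.7, 28.8 and 24.9 in high glucose. Next in rank to the peak at 140502597 in high glucose were 140474984 to 140475937 (28.8) and 140563156 to 140564489 (29.9). The widest beta peak was of moderate strength, 140515540 to 140517514 in high glucose (1975 bp, fold 13.7) and 140515507 to 140517495 in normal glucose (1989 bp, 17.96). These beta peaks lay on either side of the threshold at the 2 glucose levels, so the counts of 1 and 4 do not separate the libraries. Unlike alpha, beta started with little 5mC: the first of its 5 equal stretches was covered to 1.73% and 2.43%, and its longest stretch without a 5mC peak, 24.0 kb, ran from 140431902 to 140455884.

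**Figure D5:**
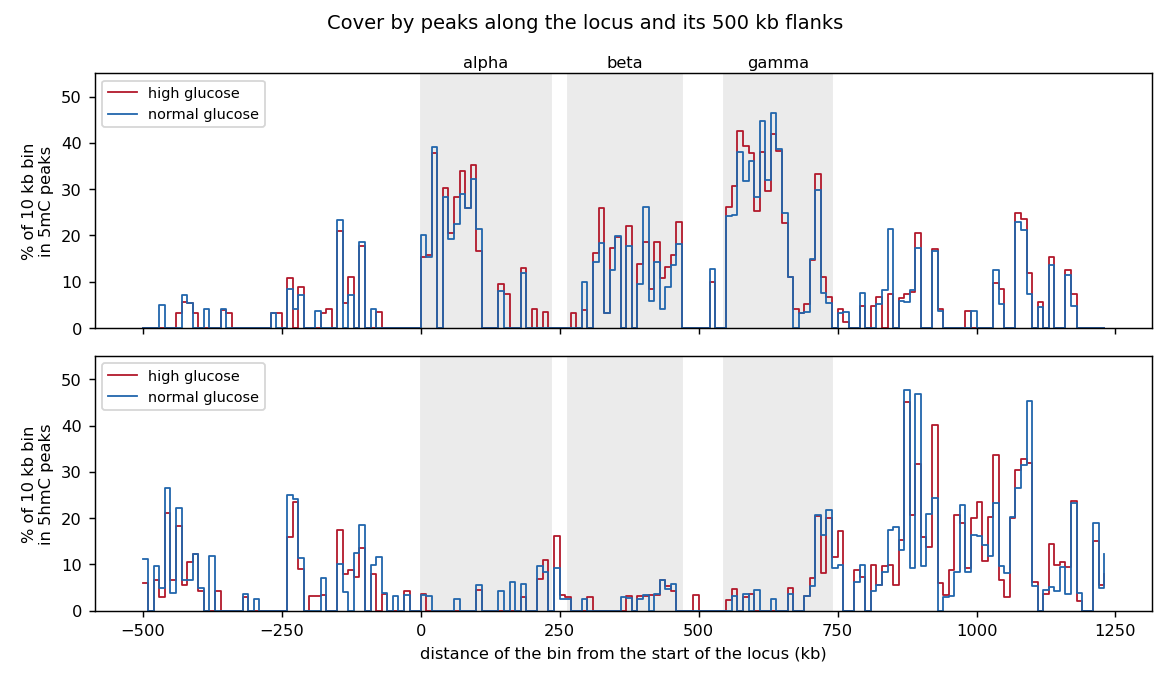
Percent of each 10 kb covered by 5mC peaks (upper panel) and 5hmC peaks (lower panel) along the locus and its flanks, in kb from the start of the locus, for the 2 glucose levels. In the 10 kb of highest mean cover, 5mC covers 37.8% (high) and 39.0% (normal) in alpha, 18.5% and 26.1% in beta and 41.9% and 46.5% in gamma; within the clusters, 5hmC is highest at the end of gamma (20.1% and 21.8%).

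The 5hmC peaks of the locus were few and of ordinary strength. Median folds were 4.45 in high and 4.03 in normal glucose in alpha, 4.42 and 3.87 in beta and 3.77 and 4.59 in gamma, against 4.47 and 4.34 over the whole lists. The best rank of a locus peak was 9932 among 191314 in high glucose and 8552 among 209999 in normal glucose. The longest stretches with no 5hmC peak at either level were 53.3 kb in alpha (140175877 to 140229184), 58.5 kb in beta (140467160 to 140525640) and 31.9 kb in gamma (140793520 to 140825468). The flanks held stretches of like length, 55.1 kb in the left and 30.8 kb in the right. The alpha stretch lay inside the array of strong 5mC peaks, and the gamma stretch held the strongest 5mC peak of the locus.

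Most 5hmC of the gamma cluster stood in the last of its 5 equal stretches. That stretch held 7 of 13 summits in high and 8 of 14 in normal glucose, and 5hmC covered 14.3% and 16.5% of it, against at most 2.09% of any other stretch of gamma. The strongest peaks there were 140881324 to 140881741 in high glucose (fold 8.33) with 140880884 to 140881707 in normal glucose (8.83), and 140874211 to 140875872 (4.82) with 140874237 to 140875839 (8.93). The last pair were the widest 5hmC peaks of gamma, at 1662 and 1603 bp. Next in rank in normal glucose was 140896199 to 140896611 (5.89), near the end of the cluster. The strongest 5hmC peak of the locus in high glucose lay near the start of gamma instead, at 140726428 to 140726815, with a fold of 10.3 and 42 fragments. In normal glucose the same place (140726479 to 140726799) had a fold of 4.37 and 28 fragments. The fragments expected there from the background were 3.16 in high and 5.63 in normal glucose, so that the 2 folds do not rest on the same base.

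The alpha and beta clusters held scattered 5hmC peaks. The place at 140163264 to 140163633, before the first strong 5mC peak, had a fold of 4.84 in high glucose, and 140163328 to 140163666 one of 6.93 in normal glucose. Within the array, 140260054 to 140260508 had 3.41 in high glucose and 140260082 to 140260629 had 6.31 in normal glucose, between the thirteenth and the fourteenth 5mC peak. Near the end of the cluster, 140386085 to 140386860 had 4.503 in high glucose, with 4.21 in normal glucose. It was the widest alpha 5hmC peak in high glucose (776 bp), and the widest in normal glucose was 140372191 to 140373147 (957 bp, 3.34). The strongest beta place was 140612203 to 140612629 in high glucose (5.90), with 140612208 to 140612777 in normal glucose (7.15). The second shared beta place, 140601169 to 140601710, had 4.69 in high glucose, with 140601188 to 140601668 (4.92) in normal glucose. The widest of beta were 140599261 to 140599931 in high glucose (671 bp, 5.05) and 140599262 to 140599919 in normal glucose (658 bp, 3.88).

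The 5mC peaks of the locus overlapped 5hmC less often than those of the whole lists. In high glucose, 10 of 88 5mC peaks of the locus overlapped a 5hmC peak by at least 1 bp (11.4%, Wilson interval 6.29 to 19.7%), against 32.2% of all 5mC peaks and 29 of 52 in the flanks (55.8%, 42.3 to 68.4%). In normal glucose 14 of 85 did (16.5%, 10.1 to 25.8%), against 39.7% of all and 22 of 49 in the flanks (44.9%, 31.9 to 58.7%). Seen from the other mark, 10 of 32 5hmC peaks of the locus in high glucose lay over 5mC (31.3%) and 14 of 36 in normal glucose (38.9%), against 17.6% and 18.0% of all 5hmC peaks. The locus thus stood below the lists for 5mC peaks and above them for 5hmC peaks, where 5mC peaks were dense and 5hmC peaks sparse. By cluster, 1 of 22 and 4 of 21 5mC peaks of alpha met a 5hmC peak, 4 of 25 and 3 of 26 of beta, and 5 of 40 and 7 of 37 of gamma.

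The gap to the whole lists was widest for strong 5mC. None of the 23 peaks with a fold of at least 30 in the 3 clusters overlapped a 5hmC peak in high glucose. A count of 0 allows a share of up to 13.04% when 3 counts are taken as its limit, and the upper Wilson bound is 14.3%. In normal glucose 4 of 26 did (15.4%, 6.15 to 33.5%). Over the whole 5mC lists, 69.8% of such peaks in high and 77.3% in normal glucose overlapped a 5hmC peak, and in the flanks 4 of 4 and 2 of 3 did. Of the alpha array, 0 of 14 in high glucose and 2 of 14 in normal glucose did, the second (5hmC at 140175567 to 140175876, fold 3.16) and the ninth (140229185 to 140229443, fold 3.85). The other 2 in normal glucose were the beta peak at 140530776 and the gamma peak at 140870134, over 5hmC folds of 3.15 and 2.83. All 4 of these 5hmC peaks were weak, below the median fold of their list (4.34).

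By distance, too, strong 5mC peaks of the clusters lay farther from 5hmC than those of the whole lists. The median distance from a strong 5mC peak to the nearest 5hmC peak was 19.5 kb in alpha, 27.8 kb for the 1 beta peak and 15.4 kb in gamma in high glucose, and 6.01, 13.8 and 5.43 kb in normal glucose, against 0 over the whole lists. More than 5 kb separated 11 of the 14 array peaks in high and 8 of the 14 in normal glucose from any 5hmC peak, against 9.59% and 6.62% of all strong peaks. The whole-list median of 0 follows from the overlap shares above, since most strong peaks of the lists overlapped 5hmC. Distances were not compared with those expected from the local density of 5hmC peaks. The fold threshold was chosen after the values were seen, and the local depth of the 5hmC libraries over these places was not tested.

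At 4 places peaks of all 4 libraries shared sequence. The longest was 140892103 to 140892644 in gamma (542 bp), with 5mC folds of 9.20 in high and 10.3 in normal glucose and 5hmC folds of 3.50 and 4.29. In beta, 140563327 to 140563573 (247 bp) had 29.9 and 21.7 for 5mC and 4.62 and 5.50 for 5hmC. Also in beta, 140530973 to 140531209 (237 bp) had 24.9 and 30.03 for 5mC and 3.22 and 3.15 for 5hmC. In gamma, 140857848 to 140858069 (222 bp) had 12.5 and 6.94 for 5mC and 3.77 and 2.68 for 5hmC. No such place lay in the alpha cluster.

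Between the glucose levels the numbers of peaks were close for 5mC, though with wide intervals, and, with few peaks, undetermined for 5hmC. The ratio of peaks in high over normal glucose for 5mC was 1.05 in alpha (22 and 21, interval 0.550 to 2.00), 0.962 in beta (25 and 26, 0.533 to 1.73) and 1.08 in gamma (40 and 37, 0.674 to 1.74). For 5hmC it was 0.600 in alpha (6 and 10, 0.179 to 1.82), 1 in beta (10 and 10, 0.374 to 2.68) and 0.929 in gamma (13 and 14, 0.402 to 2.13). The whole lists were themselves unequal, with 100220 and 91870 peaks of 5mC and 191314 and 209999 of 5hmC. A ratio of 1 is thus not the ratio of the lists. For beta 5mC the side of 1 changed with the counting: the ratio was 1.095 with peaks within 500 bp merged and 1.19 by covered length. All 6 intervals included 1, and they do not show that the libraries were alike: those of 5hmC in beta and gamma and of 5mC in alpha also include a ratio of 2.

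Most places were listed at both glucose levels. Of the locus 5mC peaks, 74 of 88 in high glucose overlapped a 5mC peak in normal glucose (84.1%, 75.05 to 90.3%) and 79 of 85 in the other direction (92.9%, 85.4 to 96.7%). The shares without such a partner were 28.3% and 21.5% over the whole 5mC lists. For 5hmC, 24 of 32 (75%, 57.9 to 86.7%) and 25 of 36 (69.4%, 53.1 to 82.0%) had a partner, and 24.1% and 31.2% of all 5hmC peaks had none. The locus 5hmC peaks were thus near the whole lists in this respect. Paired summits lay close: the median distance was 56 bp over 66 pairs of single 5mC peaks and 48 bp over 23 pairs of 5hmC peaks, against 48 and 49 bp on the whole of chromosome 5.

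The 5mC peaks listed at 1 glucose level only were weak. The 14 in high glucose had folds of 3.596 to 5.87 and 6 to 10 fragments. The 6 in normal glucose had 3.72 to 4.95 and 5 to 8 fragments. Peaks with a partner ran from 4.38 to 94.1 in high and from 4.31 to 68.2 in normal glucose. The weakest of those with a partner thus lay in the same range. In alpha the strongest without a partner were 140365122 to 140365543 (5.87) and 140385141 to 140385497 (5.69) in high glucose and 140266170 to 140266494 (4.95) and 140165971 to 140166352 (4.605) in normal glucose. Beta had 140482358 to 140482715 (5.76) and 140487186 to 140487589 (5.18) in high glucose and 140589537 to 140589977 (4.95) and 140455885 to 140456209 (4.03) in normal glucose. Gamma had 140834338 to 140834746 (5.76) and 140885963 to 140886297 (4.75) in high glucose and, as its only one in normal glucose, 140874382 to 140874712 (4.86). They thus lay at the weak end of the locus, where the lowest counts of any 5mC peak were 6 and 5 fragments.

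For 5hmC, peaks without a partner overlapped in strength with those that had one. The 8 in high glucose had folds of 2.78 to 6.20 and the 11 in normal glucose 2.83 to 6.32, against 3.22 to 10.3 and 2.31 to 8.93 for those with a partner. Alpha held 1 of them in high glucose, 140349487 to 140349786 (4.60), and 5 in normal glucose, the strongest being 140306845 to 140307275 (6.17) and 140346594 to 140347180 (4.40). Both of those lay over the moderate 5mC places after the array. In beta, 140573240 to 140573584 (6.20) was listed in high glucose alone and 140580507 to 140580874 (6.32) in normal glucose alone, and each overlapped a 5mC peak of its own glucose level. Next in beta were 140588404 to 140588742 in high glucose (4.22) and 140525641 to 140525929 in normal glucose (3.87). In gamma the strongest were 140754905 to 140755259 (5.52) and 140719770 to 140720073 (3.34) in high glucose and 140793261 to 140793519 (4.09) and 140762847 to 140763305 (3.86) in normal glucose. These places were few, and with 1 library a glucose level a difference between the libraries and a difference between the conditions cannot be told apart.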

How the data were processed

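Immunoprecipitated DNA of 4 libraries was analysed, 1 per mark and glucose level. The build is hg19, per the submitters' processing notes, which also list bedtools 2.17.0, SAMtools 0.1.18, Bowtie 1.0.0 and CASAVA 1.8.2 with no roles. Which peak caller and control were used, and how duplicates were handled, is not given in the sources used here. A single narrow-peak list per library was deposited by the authors. Each row gives the authors' display score, which was not used, a fold enrichment at the summit (a ratio), -log10 p and -log10 q values and the summit's offset from the peak start. The highest q-values in the deposited lists were 0.0498, 0.0496, 0.0496 and 0.0488. Groups follow the sample labels, since peak names inside the lists use other words (Ctrl for high glucose, Low for normal).

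Peaks on chromosomes 1 to 22 and X were counted by overlap of at least 1 bp and printed 1-based, and no rows of a list overlapped. Fragments at a summit were solved from fold and -log10 p under an assumed Poisson model with a pseudocount of 1. The solution held to within 1% of a step for at least 99.975% of the peaks of each list and all locus peaks. The solver and the overlap counts were tested on simulated data. Cover is the percent of a region inside peaks. A count of 0 is also given the limit of 3 counts over the total. Density intervals are exact Poisson, ratio intervals exact binomial (Clopper-Pearson) and share intervals Wilson, all at 95% (Python 3.11.15, NumPy 2.4.6, pandas 2.3.3, SciPy 1.17.1). The locus, its clusters and the lists compared were chosen with earlier results of these data known.

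Peaks were named by rule: in each cluster and list the 3 of highest -log10 p, the 2 strongest without a partner and the widest, the places shared by all 4 lists, and per mark the 10 kb of highest cover and the longest stretch without a peak. The 14 alpha peaks, the remaining peaks of fold 30 or more, their counterparts at the other glucose level and the other places named were chosen after their values were seen. A count of genes with a peak was planned and not made, for want of an hg19 annotation. The alternatives tried were a limit of 10 on -log10 p, a limit of 2 on -log10 q, merging within 500 bp, overlap of 50% of both peaks, covered length, each flank alone, equal numbers of peaks from the 2 lists of a mark and peaks placed by their summit.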

Additional observations from a re-analysis of the deposited data

How the results depend on the processing

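Of 150 planned recalculations 135 left the value within its interval, 15 moved it beyond. None turned the direction of a ratio whose interval excluded 1, but 8 density ratios to the flanks gained an interval that included 1, each with its value in the report. The ratio of beta 5mC peaks in high over normal glucose, 0.962, passed to the other side of 1 with peaks merged (1.095) and by covered length (1.19). By covered length the ratio of 5mC to the flanks rose to 3.82 (high glucose) and 3.63 (normal glucose) in alpha and to 7.14 and 7.14 in gamma. Against the left flank alone, the gamma ratio was 0.775 for 5hmC in high glucose and 6.32 for 5mC in normal glucose. With overlap of 50% of both peaks, the share with a partner fell to 56.3% and 50% for 5hmC in high and normal glucose and to 78.8% for 5mC in normal glucose, and the share of 5mC peaks over 5hmC fell to 4.55% and 4.71%. With a -log10 p of at least 10 in every list, 97.1% and 98.6% of the locus 5mC peaks had a partner, and 2.90% and 5.80% overlapped 5hmC. Shares of the whole lists were not calculated at either of these settings. These locus shares therefore cannot be set against the lists. The 6 recalculations added after the data were seen, with a fold of at least 20 or 40 or a 5hmC peak within 1000 bp, kept the share of strong 5mC peaks over 5hmC within its interval. No paired analysis was possible because each group holds 1 library. The 5mC libraries, at 6.14 M and 5.11 M inferred reads, list peaks of 5 or 6 fragments in the locus. What depth does to such peaks was not tested, and local copy number, mappability and antibody efficiency were not tested.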

Other observations

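The spacers between the clusters held a few peaks that belong to no cluster. Between alpha and beta no 5mC peak was listed at either glucose level, while a wide 5hmC peak stood at 140407361 to 140408973 in high glucose (fold 7.60, 38 fragments) and at 140407394 to 140408318 in normal glucose (fold 7.04, 42 fragments). These folds exceed those of every alpha 5hmC peak in the same list. A second, weaker 5hmC place followed at 140415984 to 140416314 (4.67 in high glucose, 3.54 in normal glucose). Between beta and gamma, where RefSeq places SLC25A2, a mitochondrial carrier, and TAF7, a subunit of the general transcription factor TFIID, a 5mC peak was listed at each level, 140683107 to 140684099 in high glucose (fold 20.02) and 140682943 to 140684212 in normal glucose (fold 23.8). Either was stronger than the median 5mC peak of beta or gamma in its list. The single 5hmC peak of this spacer, 140654653 to 140655001 (4.52), was listed in high glucose alone.

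In the last 10 kb of gamma and in both flanks, 5hmC peaks covered more than 5mC peaks, which is the usual order of these lists. The last of the 5 equal stretches of alpha had the same order, with 4.42% and 3.81% for 5hmC against 1.66% and 0% for 5mC. So had the spacer between alpha and beta, with 6.48% and 3.95% against 0%. The libraries of the marks differed in inferred depth, so this order describes the lists and not the amounts of the marks. Over the whole lists, 5hmC covered 3.91% in high and 4.24% in normal glucose, and 5mC 2.43% and 2.25%. The left flank held 43 and 47 peaks of 5hmC and 20 and 15 of 5mC. In the last 10 kb of gamma, 140890000 to 140899999, 5hmC covered 20.1% in high and 21.8% in normal glucose against 6.62% and 5.42% for 5mC. The right flank held 112 and 111 peaks of 5hmC and 32 and 34 of 5mC, whereas gamma as a whole held 13 and 14 of 5hmC and 40 and 37 of 5mC, in 195 kb against 500 kb.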
